A study of Homo sapiens with 6 samples.

Results

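The genes described here are the carriers that move amino acids, and neurotransmitters and osmolytes related to them, across membranes in TOV21G, an established line of ovarian clear cell carcinoma cells. They were taken by symbol, as every gene whose name begins with SLC1A, SLC3A, SLC6A, SLC7A, SLC36A, SLC38A or SLC43A and a digit, and whose mean over the 6 libraries was at least 0.5 TPM, an abundance corrected for transcript length and library size. Of the 16910 genes in the deposited table, 47 matched by name and 28 reached the minimum. Of these 28, 27 are carriers or their heavy chains, and the other is SLC7A6OS, a neighbour of SLC7A6 on the opposite strand that shares its symbol and is not a carrier. The rule used no difference between groups, though a gene low in some libraries can reach that mean through others. Just inside the minimum were SLC6A17 at a mean of 0.585 TPM and SLC7A8 at 0.875 TPM. Just outside it were SLC6A12, a betaine and GABA carrier, at 0.498 TPM and SLC43A1, a facilitator of neutral amino acids, at 0.452 TPM.

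RNA was sequenced from 3 groups of 2 libraries each. The siGYS1 group carries the label GYS1 knock down and the sip53 group the label p53 knock down, and the NC group is labelled WT and is read here, from its name, as the control siRNA. All 3 groups are the same line, and GYS1 encodes the muscle-type glycogen synthase. The sources used here give neither the siRNA sequences nor the time after transfection, nor whether replicates came from separate cultures. Each p-value therefore describes spread among these libraries alone, and that spread may be technical. In a bulk sample, fewer cells with a transcript and less of it per cell cannot be told apart.

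The read counts of a library summed to between 17425000 and 18097337. GYS1 was at 2.33 and 2.15 TPM with siGYS1, at 39.27 and 40.66 TPM with sip53 and at 37.64 and 33.42 TPM with NC. Among markers of the labelled tissue, PAX8 lay between 177.05 and 220.04 TPM in the 6 libraries, while NAPSA did not exceed 0.57 TPM. Of 8 leukocyte markers 4 had no row in the table, and of the others CD68 had the highest value, 8.37 TPM. The 4 endothelial markers with a row summed to at most 2.5 TPM in any library. Libraries of 1 group also differed in how their counts ran with transcript length. The rank correlation of a library's deviation in log2 CPM with that length, over 11187 genes, was 0.543 in siGYS1 replicate 1 and -0.392 in NC replicate 2, and between -0.0849 and 0.0428 in the other 4 libraries.

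Amino acids are charged or polar and do not cross a membrane unaided, so a cell's supply depends on its carriers. The SLC7 light chains are exchangers that reach the surface only when bound to a heavy chain of the SLC3 family. SLC7A5 with SLC3A2 trades intracellular glutamine for leucine and other large neutral amino acids, and SLC7A11 with SLC3A2 trades glutamate for cystine, from which glutathione is made. The SLC1, SLC6 and SLC38 families concentrate their substrates with the sodium gradient, and several SLC36 and SLC38 members sit in the lysosome, where amino acids are sensed by mTORC1. Transcription of many of these genes is known to respond to amino acid shortage through the factor ATF4, which binds amino acid response elements, and to oxidative stress through NRF2, which binds antioxidant response elements.

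Promoter windows from RefSeq (GRCh38.p14, from 250 bases before to 50 bases after each annotated start) were matched by symbol for 24 of the 28 genes, which have 43 windows between them. The other 4, SLC7A11, SLC43A3, SLC3A1 and SLC6A6, are not analysed here for sequence. The windows printed are those of the heavy chain SLC3A2 and its light chains SLC7A5 and SLC7A6, which all rose with sip53, and of SLC6A9, which passed the test in opposite directions in the knockdowns. They lie on chr16:87869458-87869757 (SLC7A5, minus strand), chr11:62881449-62881748 (SLC3A2, plus strand), chr16:68264276-68264575 (SLC7A6, plus strand) and chr1:44031413-44031712 (SLC6A9, minus strand), each across an annotated transcription start. SLC3A2 has 3 windows, and the one shown, from a start inside the gene, is that with motif matches. Capitals mark matches, on either strand, to TGATGNAA (the core of amino acid response elements), TGACNNNGC (the core of antioxidant response elements), CACGTG (an E-box) or ACGTGC (the hypoxia response word), of which the last 2 can overlap.
SLC7A5: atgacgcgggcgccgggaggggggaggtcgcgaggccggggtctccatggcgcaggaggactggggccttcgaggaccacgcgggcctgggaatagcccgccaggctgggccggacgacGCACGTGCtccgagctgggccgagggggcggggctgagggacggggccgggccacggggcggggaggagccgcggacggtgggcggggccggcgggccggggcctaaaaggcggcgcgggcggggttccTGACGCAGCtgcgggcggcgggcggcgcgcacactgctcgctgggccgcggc
SLC3A2: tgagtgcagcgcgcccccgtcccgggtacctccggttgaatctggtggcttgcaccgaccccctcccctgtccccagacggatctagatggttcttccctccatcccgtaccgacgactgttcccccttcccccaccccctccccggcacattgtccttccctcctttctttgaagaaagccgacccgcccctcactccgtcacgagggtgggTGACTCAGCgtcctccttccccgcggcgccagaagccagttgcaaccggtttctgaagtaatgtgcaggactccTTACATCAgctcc
SLC7A6: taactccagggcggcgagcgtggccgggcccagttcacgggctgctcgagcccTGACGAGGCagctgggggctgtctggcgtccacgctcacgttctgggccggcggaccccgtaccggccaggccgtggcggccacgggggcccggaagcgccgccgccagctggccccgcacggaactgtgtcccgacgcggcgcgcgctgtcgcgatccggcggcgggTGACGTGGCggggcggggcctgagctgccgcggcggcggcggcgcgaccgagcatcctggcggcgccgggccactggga
SLC6A9: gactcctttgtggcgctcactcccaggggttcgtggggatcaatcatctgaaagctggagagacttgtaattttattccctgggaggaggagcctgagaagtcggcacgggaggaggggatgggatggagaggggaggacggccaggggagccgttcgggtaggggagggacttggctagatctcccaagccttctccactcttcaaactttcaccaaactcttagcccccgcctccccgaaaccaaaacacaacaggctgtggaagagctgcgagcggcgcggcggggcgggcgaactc

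SLC7A5 held an antioxidant core across its start, from base -2, and upstream an E-box overlapped on both sides by the hypoxia word. SLC3A2 held an antioxidant core from base -37 and, past the start, the amino acid response core on the minus strand from base 38. SLC7A6 held 2 antioxidant cores and SLC6A9 none of the 4 motifs. Of the 43 windows, 5 (11.63%) held the amino acid response core, against 3.617% of all 35116 promoter windows. The antioxidant core was in 6 (13.95%), against 13.35% of all windows, the E-box in 7 (16.28%), against 7.256%, and the hypoxia word in 6 (13.95%), against 6.889%. A match is a run of letters, not an occupied site, and windows of 1 gene share sequence.

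Across the 28 genes, mean levels ran from 0.585 to 153 TPM with a median of 13.4 TPM, and 18 genes were at 10 TPM or more. SLC38A2, the sodium-coupled carrier SNAT2 of small neutral amino acids, had the highest mean level, and SLC3A2 the next. The 27 carriers and heavy chains together summed to 763 and 671 TPM with siGYS1, to 805 and 803 TPM with sip53 and to 615 and 548 TPM with NC. Both knockdowns thus had a higher sum than NC in all their libraries, and the sip53 libraries lay above those of siGYS1. The heavy chains alone summed to 81.5 and 86.0 TPM with siGYS1 and to 139 and 152 TPM with sip53. The SLC38 family, the largest part, summed to 418 and 343 TPM with siGYS1 and to 366 and 344 TPM with sip53. The knockdowns overlapped in the SLC38 sum, while the heavy chains were higher in both sip53 libraries. TPM divides by transcript length, so levels can be set beside each other between genes on this scale.

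**Figure D1:**
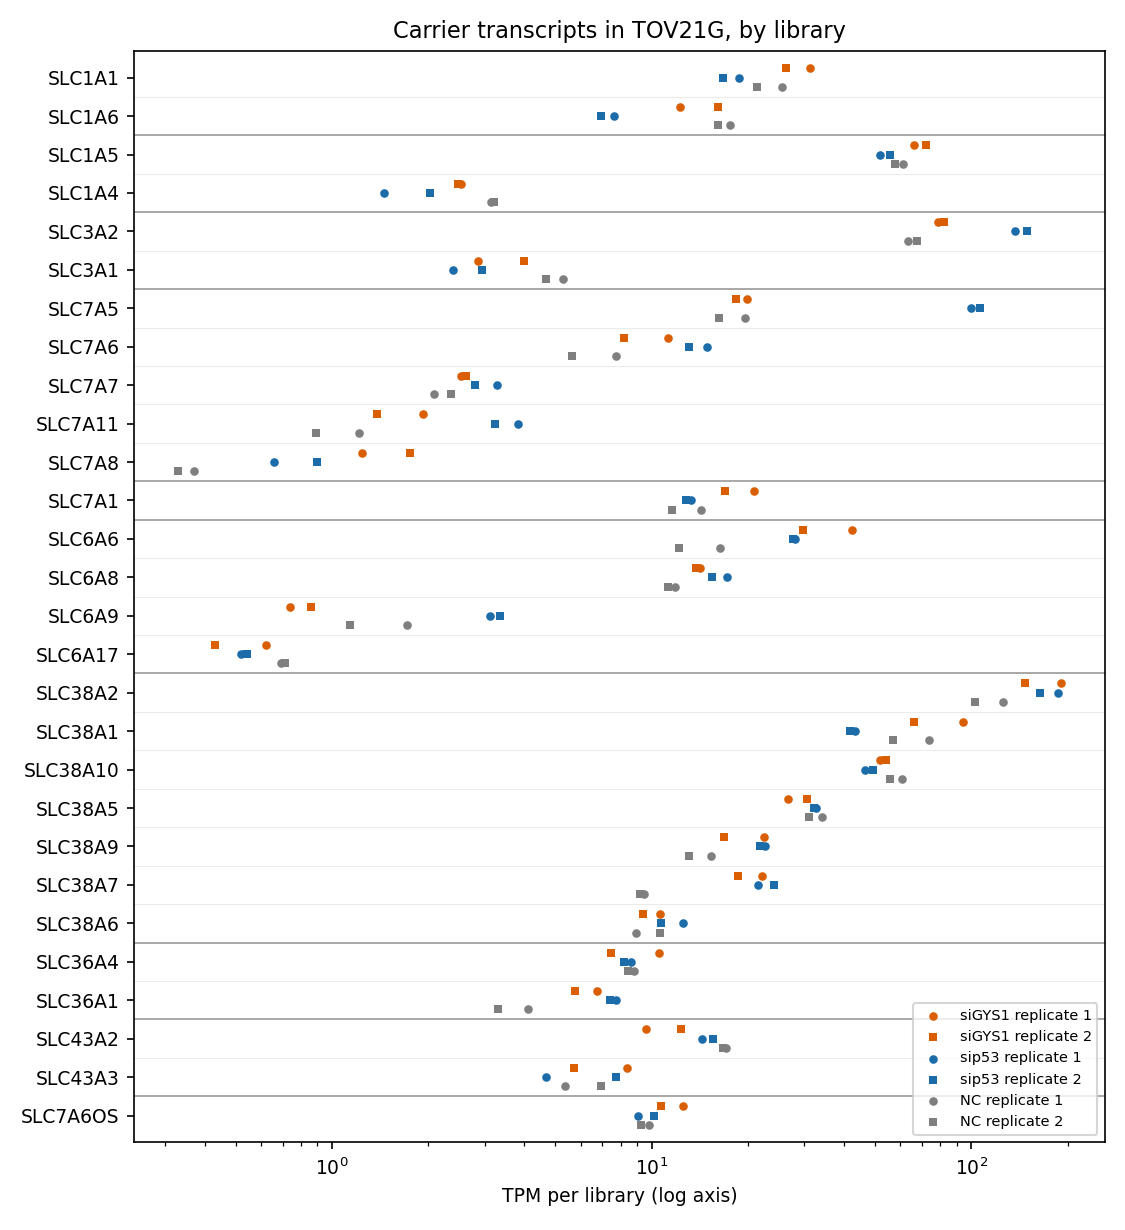
TPM of the 28 genes in each library on a log axis, grouped by family and role, with siGYS1 in orange, sip53 in blue and NC in grey, circles for replicate 1 and squares for replicate 2. SLC7A5 and SLC3A2 stand apart to the right with sip53, while SLC6A9 has siGYS1 lowest, NC in between and sip53 highest.

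With siGYS1 against NC, 12 of the 28 genes passed the test (edgeR's quasi-likelihood test, Benjamini-Hochberg adjusted over 13235 genes), 10 higher and 2 lower. Of all genes tested 19.7% passed, 10.4% higher and 9.24% lower. The median log2 fold change was 0.23 over the 28 genes and -0.01 over all genes. With sip53 against NC, 19 passed, 13 higher and 6 lower, where 49.9% of all genes passed, 23.4% higher and 26.5% lower. There the medians were 0.22 and -0.03. Both comparisons share the NC libraries, so that values of one gene in both are given side by side and their likeness is not tested. All 28 genes passed the filter on low counts.

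**Figure D2:**
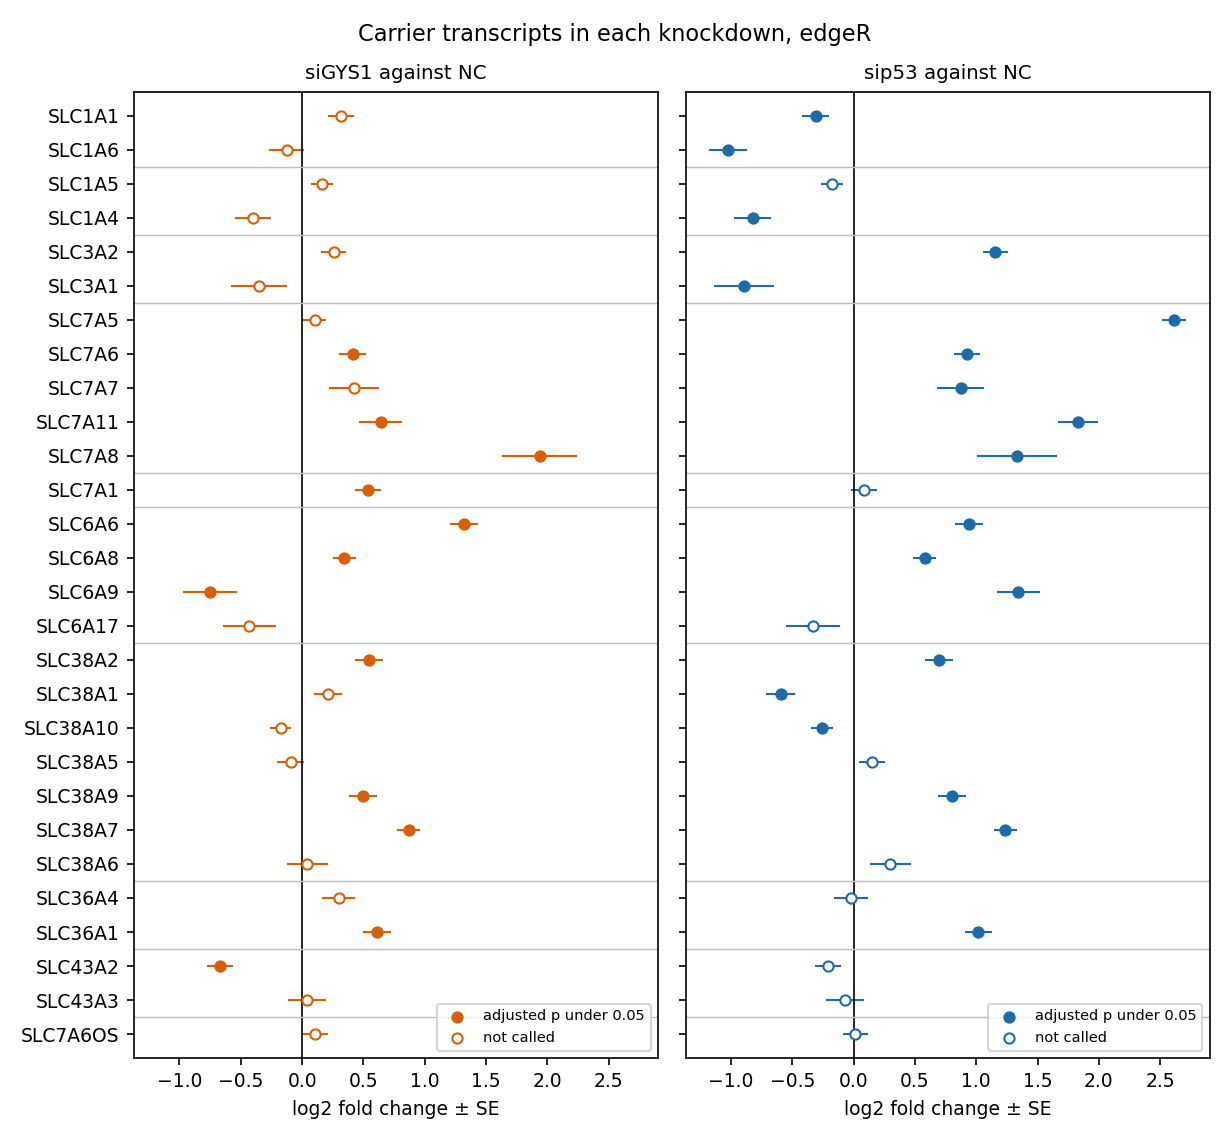
edgeR log2 fold change with its standard error (SE) for the 28 genes, siGYS1 against NC on the left and sip53 against NC on the right; filled points have an adjusted p under 0.05. All 5 light chains lie right of 0 in the sip53 panel, led by SLC7A5 at 2.61, while in the siGYS1 panel SLC7A5 is at 0.10.

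SLC3A2 (CD98) is the heavy chain of several SLC7 light chains. With sip53 all 5 light chains present and SLC3A2 rose, and with siGYS1 3 light chains rose, while SLC7A5 and SLC3A2 did not pass. Of all genes 23.4% passed as higher with sip53 and 10.4% with siGYS1. SLC7A5, the leucine and glutamine exchanger LAT1, was at 19.84 and 18.38 TPM with siGYS1, at 99.92 and 106.45 TPM with sip53 and at 19.53 and 16.19 TPM with NC. Only the sip53 libraries were high, and siGYS1 overlapped NC. The rise with sip53 was 6.11-fold (log2 2.61, SE 0.10, adjusted p = 1.48e-07), the largest log2 fold change among the 28 genes. With siGYS1 the log2 fold change was 0.10 (SE 0.10, adjusted p = 0.487).

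SLC3A2, which carries these exchangers to the surface and also binds integrins, was at 78.6 and 81.99 TPM with siGYS1, at 136.89 and 149.04 TPM with sip53 and at 63.58 and 67.83 TPM with NC. The 3 groups did not overlap, and sip53 was well above the others. With sip53 it rose 2.23-fold (log2 1.16, SE 0.10, adjusted p = 1.98e-05). With siGYS1 its log2 fold change of 0.26 (SE 0.10) had an adjusted p of 0.108. It passed with offsets for transcript length (log2 0.34, adjusted p = 0.00295) and without siGYS1 replicate 1 (adjusted p = 0.0472).

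SLC7A11, the cystine and glutamate exchanger xCT, was at 1.92 and 1.38 TPM with siGYS1, at 3.82 and 3.24 TPM with sip53 and at 1.21 and 0.89 TPM with NC. The groups were ordered sip53, siGYS1, NC without overlap, at low levels throughout. It rose 3.55-fold with sip53 (log2 1.83, SE 0.16, adjusted p = 2.08e-05) and 1.56-fold with siGYS1 (log2 0.64, SE 0.17, adjusted p = 0.03). The call with siGYS1 was lost without NC replicate 2, siGYS1 replicate 1 or either sip53 library, at adjusted p between 0.0539 and 0.193, and with limma on log2(TPM + 1), at 0.179.

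SLC7A6, which exchanges cationic for neutral amino acids, was at 11.22 and 8.17 TPM with siGYS1, at 14.87 and 13.09 TPM with sip53 and at 7.76 and 5.63 TPM with NC. Here too the order was sip53, siGYS1, NC, with no overlap. It rose 1.90-fold with sip53 (log2 0.93, SE 0.11, adjusted p = 9.22e-05) and 1.33-fold with siGYS1 (log2 0.41, SE 0.11, adjusted p = 0.0264). The siGYS1 call was lost without NC replicate 2, siGYS1 replicate 1 or either sip53 library, at adjusted p between 0.0623 and 0.206, and with limma on log2(TPM + 1), at 0.164. Exons of SLC7A6 and SLC7A6OS overlap over 3371 bases on opposite strands, their deposited counts are not whole numbers, and the sources used here do not say whether reads were stranded, so their reads cannot be told apart there. SLC7A6OS itself lay between 9.09 and 12.54 TPM in all libraries and passed in no comparison.

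SLC7A7, the related exchanger whose loss causes lysinuric protein intolerance, was at 2.53 and 2.62 TPM with siGYS1, at 3.27 and 2.8 TPM with sip53 and at 2.08 and 2.35 TPM with NC. All knockdown libraries lay above both NC libraries by small steps. It rose 1.83-fold with sip53 (log2 0.87, SE 0.19, adjusted p = 0.00426), and with siGYS1 its log2 fold change of 0.42 had an adjusted p of 0.166. The sip53 call was lost with limma on log2(TPM + 1), at 0.0904, and on log2(TPM + 0.1), at 0.123. Its reads per TPM, a measure of the transcript length the authors' TPM assumed, differed between sip53 and NC by 0.34 on the log2 scale, so count and TPM scales part there.

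SLC7A8, the second system L light chain LAT2, was at 1.24 and 1.75 TPM with siGYS1, at 0.66 and 0.9 TPM with sip53 and at 0.37 and 0.33 TPM with NC. Its mean over the 6 libraries was the lowest of the light chains, and the groups were ordered siGYS1, sip53, NC without overlap. It rose 3.83-fold with siGYS1 (log2 1.94, SE 0.30, adjusted p = 0.00283), the largest log2 fold change of that comparison among the 28 genes. With sip53 it rose 2.52-fold (log2 1.33, SE 0.33, adjusted p = 0.00729), a call lost without sip53 replicate 2 (adjusted p = 0.0537), with DESeq2 (0.0655) and with limma on log2(TPM + 1), at 0.0523. The NC libraries held 10 and 11 reads of it.

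Summed over the 5 light chains that pair with SLC3A2, transcript levels were 36.8 and 32.3 TPM with siGYS1, 123 and 126 TPM with sip53 and 31.0 and 25.4 TPM with NC. SLC7A5 made up 54.0% and 56.9% of that sum with siGYS1, 81.5% and 84.2% with sip53 and 63.1% and 63.8% with NC. Its share was thus highest in both sip53 libraries and lowest in both siGYS1 libraries. The level of SLC3A2 per summed light chain was 2.14 and 2.54 with siGYS1, 1.12 and 1.18 with sip53 and 2.05 and 2.67 with NC. With sip53 heavy and light chain transcripts were near parity, and in the other libraries the heavy chain was in excess. These ratios are descriptions of transcript levels and were not tested.

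**Figure D3:**
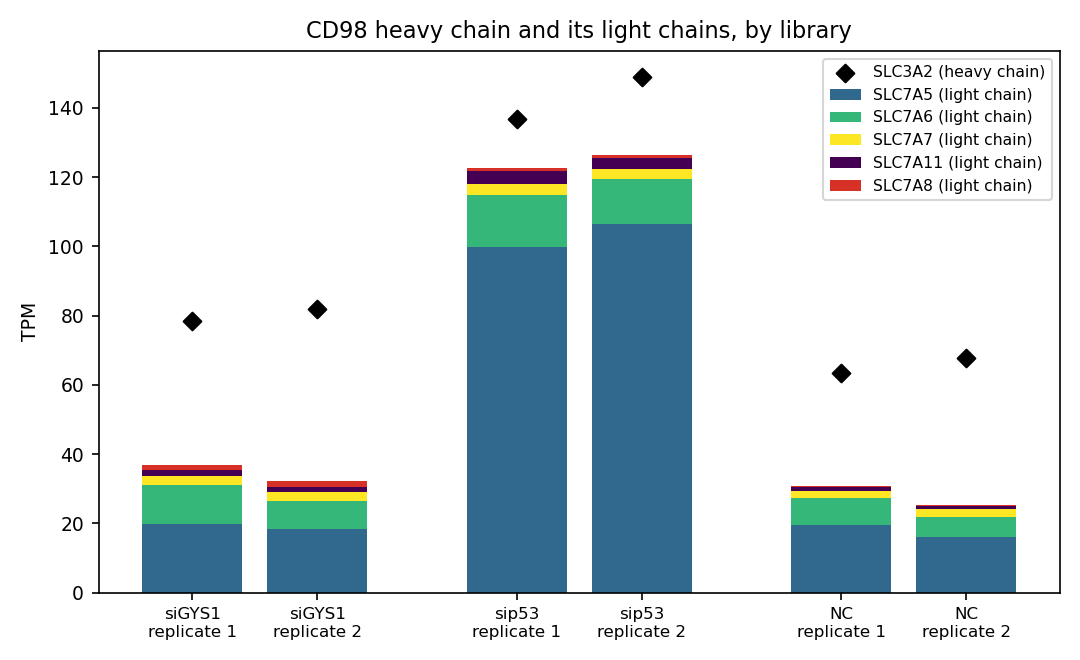
TPM of the 5 SLC7 light chains, stacked, and of the heavy chain SLC3A2, as diamonds, in each library. The light-chain stack reaches 123 and 126 TPM with sip53 and stays at or under 36.8 TPM in the other 4 libraries, where the diamonds stand far above the stacks.

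SLC3A1, the heavy chain of the cystine carrier of kidney and gut, went the other way from SLC3A2. It was at 2.86 and 4.0 TPM with siGYS1, at 2.39 and 2.95 TPM with sip53 and at 5.29 and 4.68 TPM with NC, so that all knockdown libraries lay below NC. It fell with sip53 (log2 -0.89, SE 0.24, adjusted p = 0.0123). That call was lost without NC replicate 1 (adjusted p = 0.056) or sip53 replicate 1 (0.104). With siGYS1 the log2 fold change was -0.35 (adjusted p = 0.309, and 0.011 without siGYS1 replicate 2). Its exons overlap PREPL on the opposite strand over 1247 bases, and its deposited counts are not whole numbers.

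SLC7A1, the main carrier of arginine and lysine, works without a heavy chain. It was at 20.92 and 16.91 TPM with siGYS1, at 13.29 and 12.76 TPM with sip53 and at 14.31 and 11.54 TPM with NC. The siGYS1 libraries were high, and sip53 lay inside the NC range. It rose 1.45-fold with siGYS1 (log2 0.54, SE 0.11, adjusted p = 0.00787). The call was lost with NC replicate 2 left out (adjusted p = 0.0817) and with limma on log2(TPM + 1), at 0.0728. With sip53 its log2 fold change was 0.09 (SE 0.11, adjusted p = 0.533).

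Among the SLC6 symporters 3 of 4 passed in each comparison, 2 higher and 1 lower with siGYS1 and 3 higher with sip53. Of all genes 19.7% passed with siGYS1 and 49.9% with sip53. SLC6A9, the glycine carrier GlyT1, was at 0.74 and 0.86 TPM with siGYS1, at 3.11 and 3.36 TPM with sip53 and at 1.72 and 1.14 TPM with NC. The groups were fully separate, with sip53 above NC and siGYS1 below it. SLC6A9 fell with siGYS1 (log2 -0.75, SE 0.22, adjusted p = 0.0403) and rose 2.54-fold with sip53 (log2 1.34, SE 0.18, adjusted p = 0.00022), the sole gene of the 28 called in opposite directions. The fall was near the threshold: it was lost without siGYS1 replicate 1 or any 1 library of NC or sip53, at adjusted p between 0.0761 and 0.183, and with DESeq2 at 0.194. The rise with sip53 was called under every alternative tried.

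SLC6A6, which takes up taurine and beta-alanine, was at 42.35 and 29.67 TPM with siGYS1, at 28.11 and 27.68 TPM with sip53 and at 16.39 and 12.2 TPM with NC. Both knockdowns were above NC in all libraries, and siGYS1 above sip53. It rose 2.50-fold with siGYS1 (log2 1.32, SE 0.11, adjusted p = 0.000117) and 1.92-fold with sip53 (log2 0.94, SE 0.11, adjusted p = 0.000117). Taurine is an osmolyte that many cells gather to hold their volume.

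SLC6A8, the creatine carrier, was at 14.2 and 13.72 TPM with siGYS1, at 17.15 and 15.4 TPM with sip53 and at 11.85 and 11.27 TPM with NC. The order was sip53, siGYS1, NC with narrow gaps. It rose 1.49-fold with sip53 (log2 0.58, adjusted p = 0.000733) and 1.27-fold with siGYS1 (log2 0.34, adjusted p = 0.0312). The siGYS1 call was lost without either NC or either sip53 library, at adjusted p between 0.0671 and 0.178, with DESeq2 at 0.0898 and with limma on log2(TPM + 1) at 0.222. SLC6A17, a carrier of synaptic vesicles in neurons, was at 0.62 and 0.43 TPM with siGYS1, at 0.52 and 0.54 TPM with sip53 and at 0.69 and 0.71 TPM with NC, and passed in no comparison.

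The SLC38 family, sodium-coupled carriers of glutamine and other neutral amino acids, had 7 genes at the minimum. With siGYS1 3 rose and none fell, where 19.7% of all genes passed, and with sip53 3 rose and 2 fell, where 49.9% passed. SLC38A2 was at 190.29 and 146.78 TPM with siGYS1, at 186.67 and 164.59 TPM with sip53 and at 125.71 and 102.67 TPM with NC. Every knockdown library was above both NC libraries, and the knockdowns overlapped. It rose 1.46-fold with siGYS1 (log2 0.54, SE 0.11, adjusted p = 0.00983) and 1.62-fold with sip53 (log2 0.69, SE 0.11, adjusted p = 0.000735). The siGYS1 call was lost without NC replicate 2, at adjusted p = 0.08.

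SLC38A1, the related carrier SNAT1, was at 94.31 and 66.24 TPM with siGYS1, at 43.28 and 41.67 TPM with sip53 and at 73.74 and 56.8 TPM with NC. The sip53 libraries were the lowest, and siGYS1 overlapped NC. It fell with sip53 (log2 -0.60, SE 0.12, adjusted p = 0.00224) while its paralog SLC38A2 rose. With siGYS1 its log2 fold change was 0.21 (adjusted p = 0.227, and 0.0139 without siGYS1 replicate 2).

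SLC38A7 and SLC38A9 are lysosomal, SLC38A7 exporting glutamine and asparagine and SLC38A9 relaying arginine to mTORC1. SLC38A7 was at 22.15 and 18.67 TPM with siGYS1, at 21.52 and 24.08 TPM with sip53 and at 9.49 and 9.21 TPM with NC. Both knockdowns were far above NC and overlapped each other. It rose 1.83-fold with siGYS1 (log2 0.87, SE 0.10, adjusted p = 0.000443) and 2.35-fold with sip53 (log2 1.24, SE 0.09, adjusted p = 7.89e-06). Its reads per TPM were lower with siGYS1 than with NC by 0.23 on the log2 scale.

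SLC38A9 was at 22.51 and 16.82 TPM with siGYS1, at 22.68 and 21.85 TPM with sip53 and at 15.32 and 13.06 TPM with NC. Again all knockdown libraries lay above NC. It rose 1.41-fold with siGYS1 (log2 0.49, SE 0.11, adjusted p = 0.0162) and 1.74-fold with sip53 (log2 0.80, SE 0.11, adjusted p = 0.000322). The siGYS1 call was lost without NC replicate 1 (adjusted p = 0.0812) or NC replicate 2 (0.059) and with limma on log2(TPM + 1), at 0.118. Of the other SLC38 genes, SLC38A10 lay between 46.4 and 60.75 TPM and fell with sip53 by 0.26 on the log2 scale (adjusted p = 0.0319), a call lost without any 1 library of NC or sip53, at adjusted p between 0.0873 and 0.24, and with DESeq2 at 0.0662. SLC38A5, at 26.66 to 34.03 TPM, and SLC38A6, at 8.94 to 12.55 TPM, passed in neither comparison against NC.

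SLC36A1, the proton-coupled carrier PAT1 that exports amino acids from lysosomes, was at 6.73 and 5.75 TPM with siGYS1, at 7.72 and 7.39 TPM with sip53 and at 4.11 and 3.3 TPM with NC. The groups were ordered sip53, siGYS1, NC without overlap. It rose 1.52-fold with siGYS1 (log2 0.61, SE 0.11, adjusted p = 0.00641) and 2.02-fold with sip53 (log2 1.02, SE 0.11, adjusted p = 7.29e-05), and the siGYS1 call was lost without NC replicate 2 (adjusted p = 0.0615). The lysosomal carriers SLC38A7, SLC38A9 and SLC36A1 thus passed as higher in both knockdowns. Of all genes 10.4% passed as higher with siGYS1 and 23.4% with sip53. Among these siGYS1 calls only that of SLC38A7 stood under every alternative. SLC36A4, a tryptophan and proline carrier, lay between 7.45 and 10.51 TPM with overlapping groups, with log2 fold changes of 0.30 with siGYS1 (adjusted p = 0.146, and 0.00423 without siGYS1 replicate 2) and -0.02 with sip53 (adjusted p = 0.916).

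The SLC1 family, which takes up glutamate and aspartate or exchanges small neutral amino acids, had no member that passed with siGYS1 in the fit reported. With offsets for transcript length 3 of the 4 passed there, SLC1A1 (adjusted p = 0.0188), SLC1A4 (0.0204) and SLC1A5 (0.0338). With those offsets 31.3% of all genes passed. With sip53 SLC1A6, SLC1A4 and SLC1A1 fell, where 26.5% of all genes passed as lower. SLC1A6, a glutamate carrier best known from cerebellar Purkinje cells, was at 12.3 and 16.12 TPM with siGYS1, at 7.64 and 6.93 TPM with sip53 and at 17.6 and 16.1 TPM with NC. The sip53 libraries were the low ones, and siGYS1 overlapped NC by a narrow margin. It fell to 0.492 times the NC level with sip53 (log2 -1.02, SE 0.15, adjusted p = 0.000439), and its log2 fold change with siGYS1 was -0.13 (adjusted p = 0.569).

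SLC1A4, the alanine, serine and cysteine exchanger ASCT1, was at 2.53 and 2.47 TPM with siGYS1, at 1.45 and 2.02 TPM with sip53 and at 3.15 and 3.2 TPM with NC. NC was highest and sip53 lowest, with no overlap. It fell with sip53 (log2 -0.83, SE 0.15, adjusted p = 0.00165), and its log2 fold change with siGYS1 was -0.40 (SE 0.15, adjusted p = 0.0846). SLC1A1, the glutamate, aspartate and cysteine carrier, was at 31.18 and 26.32 TPM with siGYS1, at 18.81 and 16.69 TPM with sip53 and at 25.5 and 21.38 TPM with NC. Its fall with sip53 was small (log2 -0.31, SE 0.11, adjusted p = 0.0396) and was lost without any 1 library of NC or sip53, at adjusted p between 0.0545 and 0.297, and with DESeq2 at 0.0873. With siGYS1 its adjusted p was 0.0673, and 0.00876 without siGYS1 replicate 2, at log2 fold changes of 0.32 and 0.41. SLC1A5, the glutamine exchanger ASCT2, lay between 51.84 and 72.3 TPM in all libraries and passed in neither comparison against NC.

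Of the sodium-independent SLC43 facilitators, SLC43A2, which lets leucine, phenylalanine and methionine pass (LAT4), was at 9.57 and 12.32 TPM with siGYS1, at 14.32 and 15.58 TPM with sip53 and at 17.06 and 16.69 TPM with NC. The order was NC, sip53, siGYS1, with no overlap. SLC43A2 fell to 0.628 times the NC level with siGYS1 (log2 -0.67, SE 0.11, adjusted p = 0.00294), and its log2 fold change with sip53 was -0.21 (SE 0.10, adjusted p = 0.12). SLC43A3, known as a purine nucleobase carrier, lay between 4.67 and 8.39 TPM with overlapping groups and passed in no comparison.

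Set side by side, 9 genes passed as higher in both knockdowns: SLC6A6, SLC6A8, SLC7A6, SLC7A8, SLC7A11, SLC36A1, SLC38A2, SLC38A7 and SLC38A9. None passed as lower in both, 1 passed in opposite directions (SLC6A9), and 7 passed in neither. The share of all genes that passed alike in both is not given here, and both comparisons share the NC libraries. These joint counts are therefore not read as particular to the 28 genes. Of the 12 siGYS1 calls, 4 stood under all 14 alternatives (SLC38A7, SLC6A6, SLC7A8 and SLC43A2), and of the 19 sip53 calls 14 did. The share of all called genes that stood so is not given here, so these counts too are not read as particular to the 28 genes. Without NC replicate 2, which with siGYS1 replicate 1 stood apart in its relation to gene length, the siGYS1 count was 4 of 28, where 6.88% of all genes passed. With offsets for length it was 18, of which 13 were higher and 5 lower, where 31.3% of all genes passed.

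The knockdowns were also compared directly. For siGYS1 against sip53, 15 of the 28 genes passed, 6 higher with siGYS1 and 9 lower, where 43.4% of all genes passed, 22.5% higher and 20.9% lower. The median log2 fold change was -0.12 over the 28 genes and 0.01 over all genes. SLC7A5 was lower with siGYS1 (log2 -2.51, SE 0.10, adjusted p = 5.89e-07), as were SLC6A9 (log2 -2.10, SE 0.20, adjusted p = 3.41e-05), SLC7A11 (log2 -1.19, SE 0.16, adjusted p = 0.000265) and SLC3A2 (log2 -0.90, SE 0.10, adjusted p = 0.000109). SLC7A6, SLC43A2, SLC36A1, SLC38A7 and SLC38A9 were lower by 0.31 to 0.52 on the log2 scale, and the TPM of SLC38A7 and SLC38A9 overlapped between the groups.

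Higher with siGYS1 than with sip53 were SLC1A6 (log2 0.90, SE 0.15, adjusted p = 0.0012), SLC38A1 (log2 0.81, SE 0.12, adjusted p = 0.000468), SLC1A1 (log2 0.62, SE 0.11, adjusted p = 0.00138), SLC7A1 (0.45), SLC6A6 (0.38) and SLC1A5 (0.34). Without sip53 replicate 1 or sip53 replicate 2 the count was 8, and with limma on log2(TPM + 1) it was 10. The calls of SLC38A7, SLC36A1, SLC43A2, SLC7A1, SLC6A6 and SLC1A5 were lost without either sip53 library. That of SLC6A6 was also lost without siGYS1 replicate 1 (adjusted p = 0.065), and that of SLC38A9 in 5 of the 6 libraries left out in turn, at up to 0.308. SLC1A4, SLC36A4 and SLC38A5 passed without siGYS1 replicate 2, and SLC3A1 and SLC38A2 without siGYS1 replicate 1, at adjusted p between 0.00253 and 0.0474. Of the genes not called, SLC7A8 had a log2 fold change of 0.60 (SE 0.26, adjusted p = 0.086).

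**Figure D4:**
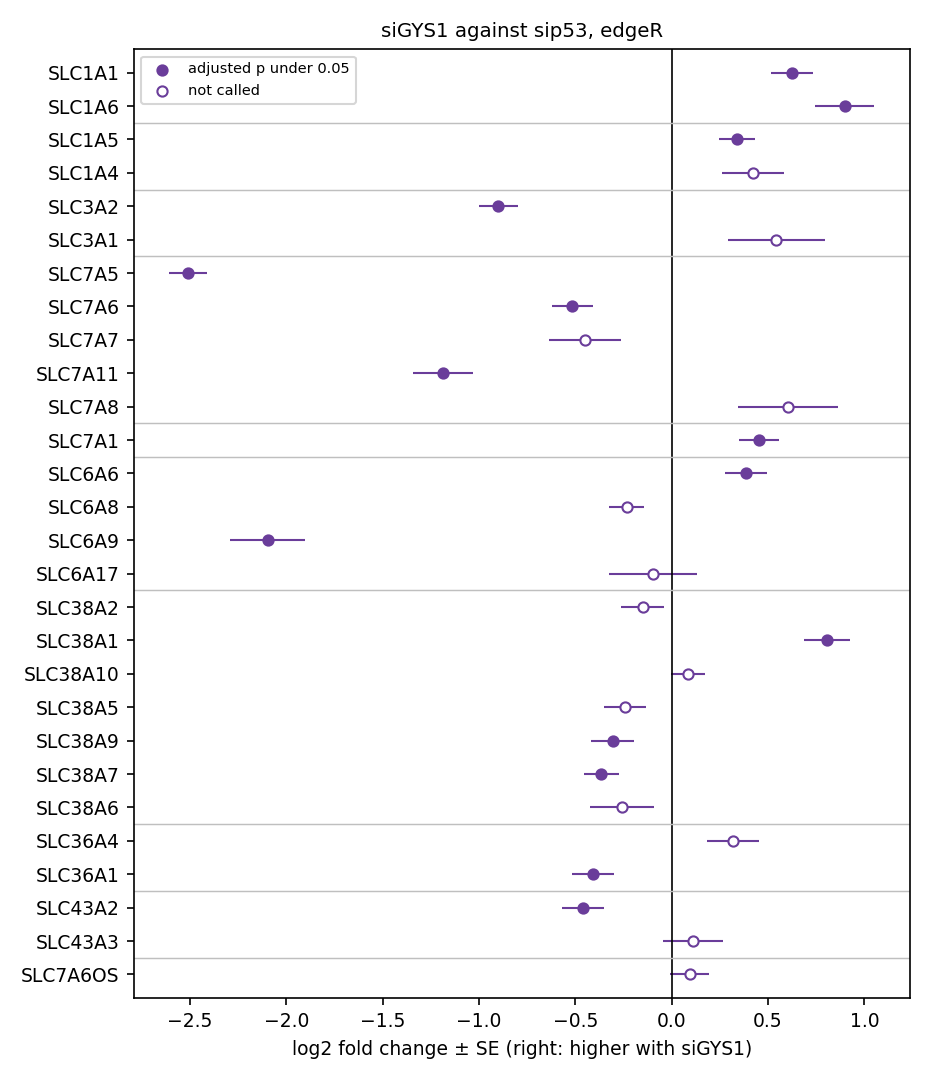
edgeR log2 fold change with its SE for siGYS1 against sip53, with values right of 0 higher with siGYS1; filled points have an adjusted p under 0.05. SLC7A5 at -2.51 and SLC6A9 at -2.10 lie farthest left, and SLC1A6 at 0.90 farthest right.

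Other genes of amino acid supply were described by lists, which were chosen with earlier results of these data known. Their counts are to be read against the 19.7% of all genes that passed with siGYS1 and the 49.9% that passed with sip53. Of 28 genes of the ATF4 and amino acid deprivation response, 5 rose and 6 fell with siGYS1, and 13 rose and 3 fell with sip53, which is 39.3% and 57.1% of the list, at median log2 fold changes of -0.05 and 0.27. ATF3, a stress-induced transcription factor, rose in both (log2 1.10 with siGYS1 and 1.61 with sip53), as did STC2, a secreted glycoprotein (1.09 and 2.51) and the factor CEBPB (0.42 and 1.59). SHMT2, a mitochondrial serine-to-glycine enzyme, fell with siGYS1 (-0.68). ATF4 itself did not pass with sip53 (log2 0.22, adjusted p = 0.0719).

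Of 17 genes of glutamine, glutamate and aspartate metabolism, 2 rose and 4 fell with siGYS1, and 3 rose and 3 fell with sip53, which is 35.3% of the list in each. GLS2, the liver-type glutaminase, fell in both (log2 -0.52 and -2.50). GLS2 was at 5.04 and 4.4 TPM with siGYS1, at 1.07 and 1.11 TPM with sip53 and at 6.27 and 6.79 TPM with NC. Its sip53 libraries were the low ones. ASNS, asparagine synthetase, fell with siGYS1 (-0.59), and GOT1, the cytosolic aspartate aminotransferase, fell in both (-0.29 and -0.43).

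Of 17 genes of glutathione and cysteine metabolism, which use the cystine SLC7A11 brings in, 1 rose and 5 fell with siGYS1 (35.3%), and 3 rose and 5 fell with sip53 (47.1%). CHAC1, which degrades glutathione, fell with siGYS1 (log2 -0.66) and rose with sip53 (0.90). CSAD, an enzyme of taurine synthesis, fell with siGYS1 (-0.64), and GPX8, a peroxidase of the endoplasmic reticulum, fell in both (-0.48 and -0.26). With sip53 GGT7, of the gamma-glutamyltransferase family, fell (-1.48), and MAT2A, which makes S-adenosylmethionine, rose (0.69).

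Of 41 genes of amino acid sensing by mTORC1, 9 rose and 2 fell with siGYS1 (26.8%), and 10 rose and 5 fell with sip53 (36.6%, under the share of all genes). Folliculin (FLCN) rose in both (log2 0.33 and 1.12), as did its partners FNIP1 (0.67 and 0.69) and FNIP2 (0.92 and 1.66). KPTN, a subunit of the complex KICSTOR, fell with siGYS1 (-0.62). CASTOR1, the cytosolic arginine sensor, fell with siGYS1 (-0.43) and rose with sip53 (1.17).

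Of 15 genes of branched-chain amino acid catabolism, which breaks down leucine and its relatives, none rose and 3 fell with siGYS1 (20%, near the share of all genes). With sip53 5 rose and 2 fell (46.7%). MCCC2, of leucine breakdown, fell with siGYS1 (log2 -0.88). The mitochondrial aminotransferase BCAT2 fell with siGYS1 (-0.52) and rose with sip53 (0.30). BCKDHA, a subunit of the branched-chain ketoacid dehydrogenase, fell in both (-0.39 and -0.53). With sip53 BCKDK, the kinase that inhibits that enzyme, rose (0.50) and ACADSB fell (-0.44).

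Of 16 genes of arginine and polyamine metabolism, none rose and 3 fell with siGYS1 (18.8%, near the share of all genes). These were NOS3, ASL and OAZ2, at log2 fold changes from -0.45 to -0.37. With sip53 6 rose and 1 fell (43.8%). OAZ2 fell there too (-0.36), and the rises were led by SAT1, which acetylates polyamines (0.99), ODC1, which makes putrescine (0.76), and spermine synthase SMS (0.62). Of 19 cytosolic aminoacyl-tRNA synthetases, none rose and 1 fell with siGYS1 (WARS1, log2 -0.56), which is 5.26% of the list. With sip53 8 rose and 2 fell (52.6%). Those that rose included CARS1 (0.70), GARS1 (0.68) and WARS1 (0.28).

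Of 15 amino acid carriers from other SLC families, 4 rose and 3 fell with siGYS1 (46.7%), and 8 rose and 3 fell with sip53 (73.3%). SLC17A8, a vesicular glutamate carrier, was at 3.71 and 3.11 TPM with siGYS1, at 0.04 and 0.12 TPM with sip53 and at 9.61 and 7.81 TPM with NC. NC was highest, siGYS1 lower and sip53 close to 0. It fell in both comparisons (log2 -1.36 with siGYS1 and -6.67 with sip53). CTNS, the lysosomal cystine exporter, rose in both (0.45 and 0.93), as did SLC25A13, a mitochondrial aspartate and glutamate carrier (0.57 and 0.56), and SLC25A22, a mitochondrial glutamate carrier, rose with sip53 (0.93).

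Of 22 regulators of amino acid carriers, 7 rose and 2 fell with siGYS1, and 12 rose and 2 fell with sip53, which is 40.9% and 63.6% of the list, at median log2 fold changes of 0.10 and 0.37. NEDD4, a ubiquitin ligase, rose in both (log2 1.38 and 1.5), and so did ARRDC3, an arrestin-domain adaptor (1.00 and 1.73), and BACH1, a repressor at antioxidant response elements (0.96 and 0.62). CLTRN, which in kidney partners SLC6 carriers, rose with sip53 (1.42).

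**Figure D5:**
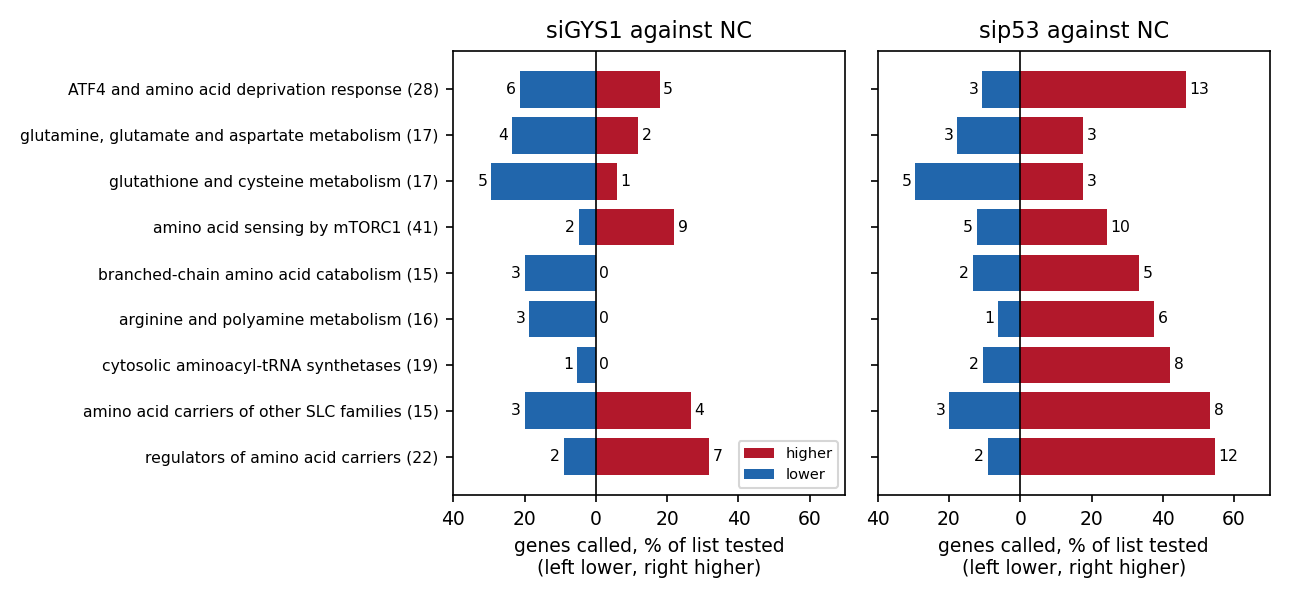
Share of each list's tested genes (number in brackets) called higher, to the right in red, or lower, to the left in blue, in siGYS1 against NC and sip53 against NC, with counts beside the bars. With sip53 the ATF4 list has 13 higher and 3 lower and the regulators 12 and 2, while with siGYS1 the ATF4 list has 5 and 6.

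Other marker sets moved in the same libraries. Epithelial and clear cell carcinoma markers summed to 6648 and 6774 TPM with siGYS1 and to 4499 and 4240 TPM with sip53. With NC the sum was 7723 and 7719 TPM. Most of each sum was SPP1 and VIM. SPP1 fell with sip53 (log2 -2.30), from 4475 and 4387 TPM with NC to 939 and 792.5 TPM, and was at 3689 and 3777 TPM with siGYS1. VIM rose with sip53 (log2 0.28), from 2359 and 2487 TPM with NC to 2848 and 2746 TPM. The lower sum with sip53 thus rests on SPP1. Of 12 such markers tested, none rose and 4 fell with siGYS1 (33.3%), and 2 rose and 5 fell with sip53 (58.3%). Neuronal and glial markers, 12 of which were under 1 TPM on average, summed to 227 and 244 TPM with siGYS1. The sum was 427 and 450 TPM with sip53 and 247 and 239 TPM with NC, nearly all of it TUBB3. SNAP25 lay between 4.01 and 6.81 TPM, RBFOX3 between 1.96 and 4.51 TPM and GFAP between 0.65 and 2.24 TPM. AQP4, S100B and OLIG2 were at 0.1 TPM or less in every library. Of 6 such markers tested, none rose and 1 fell with siGYS1, GFAP (16.7%, against 19.7% of all genes). With sip53 TUBB3 and RBFOX3 rose and GFAP fell (50%, against 49.9%). Fibroblast markers summed to 214 and 186 TPM with siGYS1, to 120 and 120 TPM with sip53 and to 234 and 217 TPM with NC, nearly all of it COL1A2, with COL3A1 and FAP at or near 0. On the same list DCN was called higher with sip53 by its counts (log2 4.23), but its TPM overlapped. They were 0.34 and 0.42 with siGYS1, 5.78 and 4.05 with sip53 and 0.41 and 8.55 with NC. NC replicate 2 was the highest library in TPM, so count and TPM scales part there and no rise is read from it. Of 8 replication-dependent histone genes tested 5 rose and 2 fell with sip53 (87.5%), and of 13 mitochondrially encoded transcripts 4 rose and 3 fell (53.8%). The part of these shifts in the carriers' values was not tested.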

How the data were processed

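Each library has deposited FPKM, TPM and read counts, per the file headers; 18 further value columns were not used. The authors' read counts are each an expected count per gene, not all whole numbers and not normalized, and were rounded. The authors' FPKM were not tested. The submitters' processing notes name the aligners STAR, HISAT2 and TopHat and the counters Salmon, HTSeq and featureCounts with no roles, and the build mm10, although the identifiers are human. No source says which one was run.

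Counts of all 6 libraries were fitted once in edgeR 4.0.16 (R 4.3.3): filterByExpr (minimum count 10), TMM, glmQLFit and glmQLFTest on group, with 3 residual degrees of freedom and a common dispersion of 0.00639. Calls are Benjamini-Hochberg adjusted p under 0.05 over 13235 genes. The script was tested on simulated data. Alternatives used limma 3.58.1, DESeq2 1.42.0, other scalings, length offsets, left-out libraries and a replicate block. Gene positions and overlaps are from GENCODE 29. Replicates differed beyond sampling noise in every group (chi-square per degree of freedom of at least 3.36), so none is a plain copy of the other. Technical differences can also raise this value, so it does not tell whether replicates share RNA or a culture.

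The genes and lists were chosen with earlier results of these data known. Values of every library are given for SLC7A5, SLC7A11, SLC3A2 and genes called against NC with an absolute log2 fold change of at least 0.5, and from each list up to 3 called genes of largest change with a mean of at least 1 TPM are named for each comparison against NC. Library values of SLC1A1, SLC6A17, GLS2, SLC17A8, SPP1, VIM and DCN, and ATF4, were added after they were seen, as were the ranges of SNAP25, RBFOX3 and GFAP. The level of the sip53 target and some genes that the rule takes from the lists are not reported here.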

Additional observations from a re-analysis of the deposited data

Results flagged for a closer look

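SLC6A9, the glycine carrier, was called in opposite directions in the knockdowns. With siGYS1 it was lower than NC in 2 of 2 libraries and with sip53 higher in 2 of 2, but the fall with siGYS1 was lost under 10 of 14 alternatives, at adjusted p up to 0.194. Tested directly, siGYS1 against sip53, its log2 fold change was -2.10 (SE 0.20, edgeR adjusted p = 3.41e-05). Exons of SLC6A9 overlap those of CCDC24 on the opposite strand over 219 bases.

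Of the genes named from the lists and marker sets, 5 were also called lower with siGYS1 and higher with sip53. Their log2 fold changes of siGYS1 against sip53 were -1.60 for CASTOR1, -1.56 for CHAC1, -1.44 for the epithelial mucin MUC1, -0.84 for WARS1 and -0.82 for BCAT2, all past the same test.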

How the results depend on the processing

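Of the counts of genes called, that of siGYS1 against NC moved most. It was 12 in the fit reported, 6 with limma on log2(TPM + 1), 6 with limma on log2(TPM + 0.1), and between 4 (without NC replicate 2) and 16 (without siGYS1 replicate 2) with 1 library left out. The count of siGYS1 against sip53 was 15, and between 8 (without sip53 replicate 1 or 2) and 17 with 1 library left out. That of sip53 against NC was 19, and 16 to 21 over all alternatives. No gene of the 28 reversed its sign past the test under any alternative tried, and the cause of the lost calls was not tested. Over all genes, the count for siGYS1 against NC was 2602, and between 926 (without NC replicate 2) and 4662 (with a replicate block), with limma at 1227 on log2(TPM + 1) and with DESeq2 at 1367 higher and 748 lower. The count over all genes for sip53 against NC was 6605, and 4271 to 8008, and for siGYS1 against sip53 5745, and 3416 to 7277. A lower TPM minimum of 0.1 took in 34 genes and a minimum of 1 took in 26.

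Replicate numbers were not taken to pair libraries: the correlation of replicate differences over 13235 genes was 0.28 for NC and siGYS1, -0.02 for NC and sip53 and 0.13 for siGYS1 and sip53. With a replicate block, 17 genes were called in siGYS1 against NC, 20 in sip53 against NC and 20 in siGYS1 against sip53. Of all genes 35.2%, 59.6% and 54.4% passed in these comparisons with the block, more than in the fit reported. In siGYS1 against NC the block added SLC1A1 (adjusted p = 0.00374), SLC3A2 (0.0142), SLC36A4 (0.0307), SLC38A1 (0.0381) and SLC1A4 (0.0417) as called. With 2 libraries a group, low genes such as SLC7A8 rest on few reads.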

Other observations

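SLC6A12, a betaine and GABA carrier just under the level minimum, was at 0.05 and 0.16 TPM with siGYS1, at 1.11 and 1.48 TPM with sip53 and at 0.04 and 0.15 TPM with NC. The sip53 libraries were the high ones and held 40 and 22 reads, against 1 and 6 reads in the NC libraries.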
